A study of Mus musculus with 12 samples.

Results

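Superoxide dismutases, catalase and peroxiredoxins are the enzymes that remove superoxide and hydrogen peroxide directly. The 10 genes asked about here were Sod1, Sod2, Sod3, Cat and Prdx1 to Prdx6, and every probe set that the platform annotation pairs with one of them was taken. That gave 25 of the 45101 probe sets on the array, for 8 of the 10 genes, and 23 of them passed a filter on dim signal. Prdx5 and Prdx6 were paired with no probe set in the annotation used here, so their expression was not analysed here. The 5 probe sets of Prdx1 are also paired with Gm21399, a pseudogene on chromosome 8, so their signal cannot be told apart and is given as Prdx1/Gm21399. The other 7 genes were each tested by the probe set with the highest mean, among 13732 genes in all.

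Superoxide dismutases turn superoxide into hydrogen peroxide and oxygen, with Sod1 in the cytosol, Sod2 in mitochondria and Sod3 outside the cell. Catalase breaks hydrogen peroxide down in peroxisomes, and peroxiredoxins reduce peroxides with a reactive cysteine that is then restored, for most of them, by thioredoxin. FoxO transcription factors are known to raise Sod2 and Cat, and blood stem cells are known to tolerate reactive oxygen species poorly.

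The study asked how loss of FoxO1, FoxO3 and FoxO4 affects expression of genes of reactive oxygen species metabolism in mouse blood stem cells and myeloid progenitors. Its 4 groups of 3 Affymetrix arrays were FoxO-deficient myeloid progenitors (arrays 10 to 12), wild-type myeloid progenitors (arrays 7 to 9), FoxO-deficient LSK cells (arrays 4 to 6) and wild-type LSK cells (arrays 1 to 3). LSK cells are bone marrow cells without lineage markers that carry Sca-1 and Kit, a fraction that contains the stem cells. The deficient groups came from Mx-Cre+ and the wild-type groups from Mx-Cre- mice, and all groups carried FoxO1/O3/O4LoxP/LoxP alleles. Mx-Cre is driven by an interferon-inducible promoter that acts in many blood and other cells. Because only the deficient groups carried it, an effect of FoxO loss and an effect of the transgene cannot be told apart. Cells were sorted from pooled mice and amplified with the NuGEN Ovation system in triplicate, and the labels do not say that the 3 arrays of a group were separate pools. The p-values therefore measure only the spread between arrays, which may be technical. In such bulk samples, fewer cells of a type and less RNA per cell cannot be told apart.

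The promoters of 4 genes are shown first, because Sod2 and Cat are known FoxO targets, Prdx2 had the lowest p-value of the tested members in FoxO-deficient against wild-type myeloid progenitors, and Prdx1 holds matches to 2 of the 3 motifs searched. Each is the RefSeq window (GRCm38.p6) of 300 bases that runs 250 bases before to 50 bases after the gene's start, 5′ to 3′ on the gene's strand. Sod2 lies on the plus strand at chr17:13007589-13007888, Cat on the minus strand at chr2:103485104-103485403, Prdx2 on the plus strand at chr8:84969372-84969671 and Prdx1 on the plus strand at chr4:116685349-116685648. Capitals mark matches to the motifs searched on both strands.
Sod2: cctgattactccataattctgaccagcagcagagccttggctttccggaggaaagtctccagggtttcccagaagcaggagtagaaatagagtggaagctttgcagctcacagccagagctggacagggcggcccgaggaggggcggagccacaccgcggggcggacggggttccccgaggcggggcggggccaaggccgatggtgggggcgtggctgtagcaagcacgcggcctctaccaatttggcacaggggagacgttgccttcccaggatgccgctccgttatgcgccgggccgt
Cat: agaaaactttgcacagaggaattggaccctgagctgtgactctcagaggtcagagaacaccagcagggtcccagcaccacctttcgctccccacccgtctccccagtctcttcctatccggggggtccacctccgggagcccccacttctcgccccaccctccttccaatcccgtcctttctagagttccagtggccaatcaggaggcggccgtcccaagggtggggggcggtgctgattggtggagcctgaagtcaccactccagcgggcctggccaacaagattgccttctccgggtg
Prdx2: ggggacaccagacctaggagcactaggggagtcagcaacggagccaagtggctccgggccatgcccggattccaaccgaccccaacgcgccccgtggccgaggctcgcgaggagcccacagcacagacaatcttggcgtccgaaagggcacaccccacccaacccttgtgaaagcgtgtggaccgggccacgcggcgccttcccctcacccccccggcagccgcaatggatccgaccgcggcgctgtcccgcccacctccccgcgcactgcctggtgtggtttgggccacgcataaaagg
Prdx1: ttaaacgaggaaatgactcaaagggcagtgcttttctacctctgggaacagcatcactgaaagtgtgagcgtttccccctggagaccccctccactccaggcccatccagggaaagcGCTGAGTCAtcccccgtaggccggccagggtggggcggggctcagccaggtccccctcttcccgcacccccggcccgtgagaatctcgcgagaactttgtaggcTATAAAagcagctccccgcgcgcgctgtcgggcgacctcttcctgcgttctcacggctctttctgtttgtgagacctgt
The motifs were the FoxO core GTAAACA, the core of the antioxidant response element bound by Nrf2, TGACNNNGC, and the TATA box TATAAA. None overlapped another in these windows. Windows were at hand for every member but Sod3 and Prdx6, so Prdx5 has a window but no probe set, and Sod3 the reverse. The Prdx4 window, on the minus strand at chrX:155338411-155338710, lies inside the gene, which spans 155323918 to 155342272, and not at its outer end. The FoxO core was found in 0 of these 8 windows, and it was in 3.65% of 32851 RefSeq promoter windows. The antioxidant response element core was found in Prdx1, as GCTGAGTCA at positions -133 to -125, and in Sod1, as GCGTGGTCA at -56 to -48, both on the strand opposite to the gene. It was in 12.4% of all windows. TATAAA was found in Prdx1 at -29 to -24, in Sod1 at -37 to -32 and, on the opposite strand, in Prdx3 at -239 to -234, and in 13.6% of all windows. A match describes letters and not a bound site, and no match says only that these letters are not in this window. The windows had a GC content of 57% to 68.7%, above the median of 52.7% over all windows.

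Values below are quantile-normalized intensities in arbitrary units, which compare 1 probe set between arrays and not 1 gene with another. Group levels are antilogs of the mean log2 value of 3 arrays, and changes are log2 differences ± the standard error of a limma fit to all 12 arrays, with 3 arrays per group. A gene was called at a Benjamini-Hochberg adjusted p under 0.05 over all 13732 genes. Every limma test was two-sided. Gene positions are 1-based in GRCm38.p6, from RefSeq.

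The mean deposited intensity per array was 118.9 to 190.2. Wild-type LSK array 2 stood apart, with a Gapdh 3′ over 5′ probe ratio of 344 against 1.77 to 2.37 on the other 11 arrays, and an Actb ratio of 145 against 2.74 to 3.36. Results are therefore also given without it. Of the targeted genes, Foxo4 was at 59.9 in FoxO-deficient and 330 in wild-type myeloid progenitors (-2.46 ± 0.19, adjusted p = 1.14e-04) and at 85.8 in FoxO-deficient and 393 in wild-type LSK cells (-2.20 ± 0.19, adjusted p = 0.00162). Foxo1 (-0.90 ± 0.58 in myeloid progenitors, adjusted p = 0.609, and -1.94 ± 0.58 in LSK cells, adjusted p = 0.263) and Foxo3 (0.38 ± 0.15, adjusted p = 0.299, and 0.22 ± 0.15, adjusted p = 0.561) were not called, with Foxo3 higher on every deficient than on every wild-type array of myeloid progenitors. Foxo1 was at 27.2 in FoxO-deficient and 104 in wild-type LSK cells and lower on every deficient array there. Without array 2, Foxo3 was called in myeloid progenitors too. Whether these probe sets lie in the deleted part is not known here, and in the fit to 12 arrays only Foxo4 was called. The sort could be read in some markers. The summed intensity of 10 measured stem cell markers, of 12 listed, was 1545 to 1926 on the arrays of myeloid progenitors and 6544 to 7305 on those of LSK cells. Ly6a, the gene of Sca-1, was not among the 10. The sum of 10 granulocyte-monocyte progenitor markers was 16050 to 20770 and 4211 to 6382. Late neutrophil markers were higher in LSK cells. The sum of 8 of them was 6468 to 6757 in FoxO-deficient and 4554 to 4700 in wild-type myeloid progenitors. In LSK cells it was 8579 to 8830 in FoxO-deficient and 5990 to 8194 in wild-type cells.

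**Figure D1:**
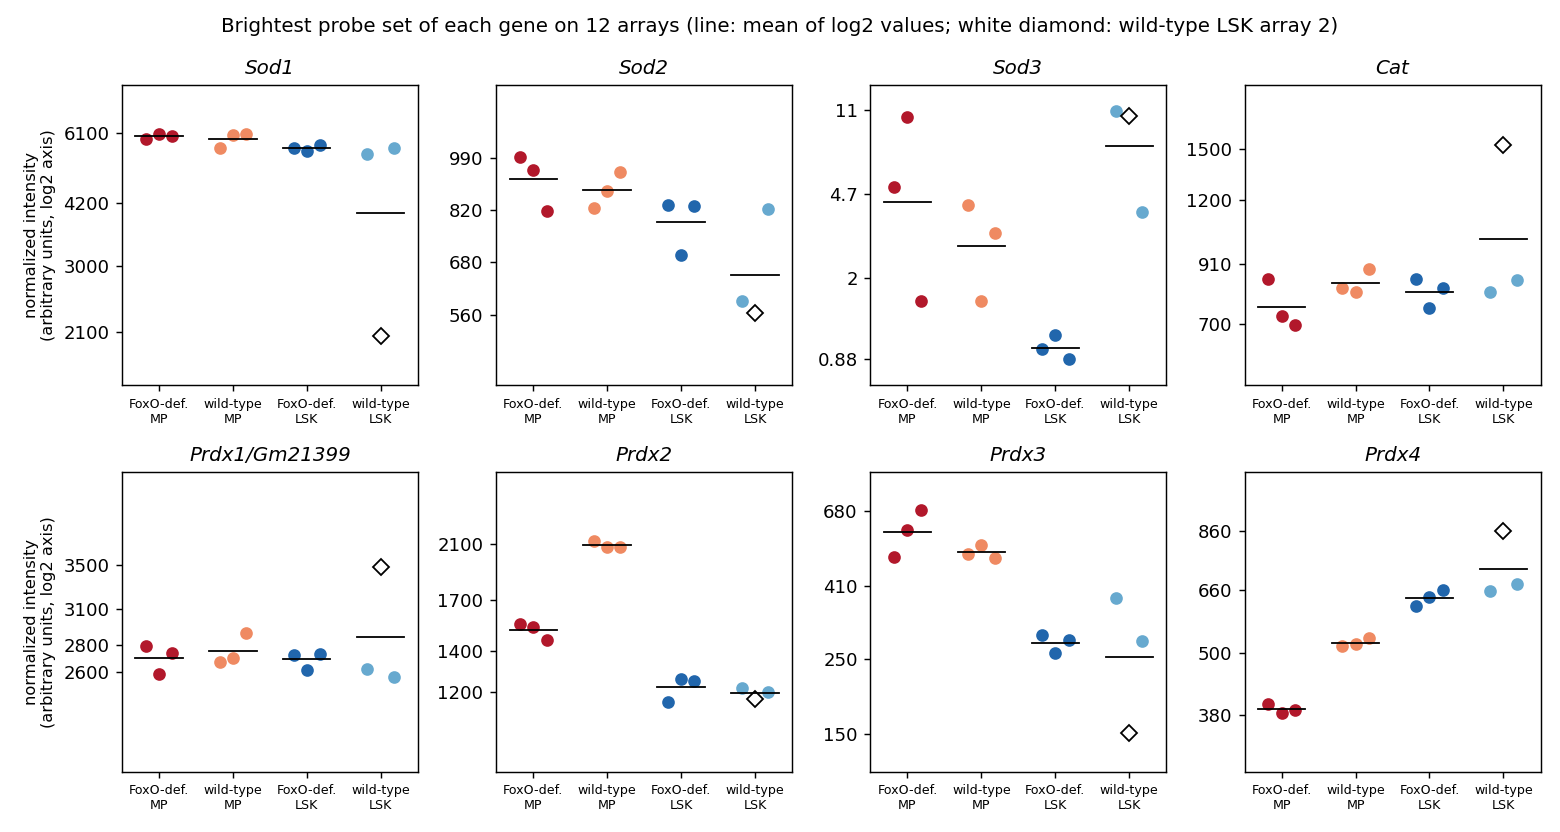
Normalized intensity (arbitrary units, log2 axis) of the brightest probe set of each gene on every array, in FoxO-deficient and wild-type myeloid progenitors (MP) and FoxO-deficient and wild-type LSK cells. Lines are group means of log2 values and the white diamond is wild-type LSK array 2. Prdx2 is highest in wild-type myeloid progenitors, Prdx4 is lowest in FoxO-deficient myeloid progenitors, and array 2 lies apart from the other wild-type LSK arrays for Sod1 and Cat.

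In the fit to 12 arrays no member passed the test with FoxO deficiency in either cell type. In FoxO-deficient against wild-type myeloid progenitors limma called 0 of the 7 genes, against 1.84% of all genes. An unadjusted p under 0.05 was found for 2 of them, against 12.9% of all genes. Over the 23 probe sets it called 0, against 1.46% of all probe sets, and 2 had an unadjusted p under 0.05, against 12.2%. The median change of the 7 genes was 0.02, beside 0.04 over all genes. The 2 genes were Prdx2 and Prdx4, and they were the only ones of the 7 whose 3 deficient arrays lay wholly to one side of the 3 wild-type arrays, where 30.8% of all genes did so and 12.6% were lower on every deficient array. In FoxO-deficient against wild-type LSK cells limma called 0 of 7 genes, against 0.269% of all genes, and 1 had an unadjusted p under 0.05, against 11.5%. Over the 23 probe sets it called 0, against 0.148% of all probe sets, and 1 had an unadjusted p under 0.05, against 10.5%. Each was Sod3, which was above background on 1 wild-type and 0 FoxO-deficient arrays of LSK cells. The median change of the genes there was 0.03, beside -0.04 over all genes. Without wild-type LSK array 2, 0 of the 6 genes that then passed the filter were called in LSK cells, against 0.989% of all genes. In myeloid progenitors 2 of the 6, Prdx2 and Prdx4, were then called lower, against 8.88% of all genes. Array 2 is in neither myeloid progenitor group but shares the estimate of the spread. The FoxO effects of the 2 cell types use different arrays but share 1 estimate of the spread per gene.

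Sod1, the cytosolic copper and zinc enzyme (chromosome 16, 90220762 to 90226333, probe set 1451124_at), was not called in any comparison. In myeloid progenitors it read 5909, 6081 and 6024 in FoxO-deficient and 5640, 6050 and 6081 in wild-type cells. It read 5627, 5559 and 5726 in FoxO-deficient LSK cells against 5463, 2059 and 5627 in wild-type LSK cells. Apart from wild-type LSK array 2, every array lay between 5463 and 6081. The change with FoxO deficiency was 0.02 ± 0.33 in myeloid progenitors (adjusted p = 0.995) and 0.50 ± 0.33 in LSK cells (adjusted p = 0.564). Without array 2 the change in LSK cells was 0.02 ± 0.08, with a 95% interval of -0.16 to 0.21. In order of level the groups were FoxO-deficient myeloid progenitors (6004), wild-type myeloid progenitors (5920), FoxO-deficient LSK cells (5637) and wild-type LSK cells (3985), and no neighbours in that order differed beyond their spread. Of its other 4 probe sets, 1 failed the filter, and the second brightest ran from 4325 to 5097 on the other 11 arrays and read 2933 on array 2. The 2 dimmer ones ran from 19.43 to 136.3 over all 12 arrays. With FoxO deficiency they differed by -0.23 ± 0.24 and -0.91 ± 0.46 in myeloid progenitors and by -0.47 ± 0.24 and -0.60 ± 0.46 in LSK cells. None of these was called over probe sets. Without array 2 the dimmer of the 2 was at -0.92 ± 0.39 in myeloid progenitors and -1.02 ± 0.43 in LSK cells, also not called (adjusted p = 0.218 and 0.36).

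Sod2, the mitochondrial manganese enzyme (chromosome 17, 13007839 to 13018119), did not pass the test in either cell type. The brightest of its 4 probe sets, 1454976_at, read 993, 946 and 818 in FoxO-deficient against 827, 878 and 941 in wild-type myeloid progenitors, and the groups overlapped. Its difference was 0.06 ± 0.18 (adjusted p = 0.965, 95% interval -0.35 to 0.46). In LSK cells it read 835, 697 and 831 in FoxO-deficient against 588, 565 and 821 in wild-type cells, again with overlap, a difference of 0.28 ± 0.18 (adjusted p = 0.567, 95% interval -0.13 to 0.68). The next 2 probe sets had all FoxO-deficient arrays below all wild-type arrays of myeloid progenitors. The second brightest read 353, 323 and 331 in FoxO-deficient against 455, 429 and 363 in wild-type myeloid progenitors. The third read 211, 258 and 216 in FoxO-deficient against 281, 314 and 273 in wild-type myeloid progenitors. Their differences, -0.30 ± 0.38 and -0.34 ± 0.30, were not called in the fit over probe sets (adjusted p = 0.873 and 0.766). Without array 2 they were -0.30 ± 0.14 and -0.34 ± 0.13, again not called (adjusted p = 0.252 and 0.164). In LSK cells these 2 probe sets differed by -0.43 ± 0.38 and -0.36 ± 0.30. Without array 2 the LSK differences were 0.10 ± 0.15 and 0.03 ± 0.14, and none of these was called. The Sod2 probe sets gave no common direction, which leaves the sign for the gene unsettled. In order of level of the brightest probe set the groups were FoxO-deficient myeloid progenitors (916), wild-type myeloid progenitors (881), FoxO-deficient LSK cells (785) and wild-type LSK cells (649), and no neighbours differed beyond their spread.

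Sod3, the secreted enzyme (chromosome 5, 52363804 to 52369738), was at or near background. A background limit per array, the highest of 27 control probe sets for bacterial transcripts, was between 5.14 and 13. The brighter Sod3 probe set, 1417634_at, exceeded it on 2 of 12 arrays, at 10.32 in FoxO-deficient myeloid progenitors (array 11) and at 10.95 in wild-type LSK cells (array 1), and the other probe set on none. It read 0.983, 1.12 and 0.883 in FoxO-deficient LSK cells against 10.95, 10.35 and 3.94 in wild-type LSK cells. These groups did not overlap, where 16.8% of all genes did not and 9.06% were lower on every deficient array, and the difference was not called (adjusted p = 0.122). In myeloid progenitors it read 5.05, 10.32 and 1.59 in FoxO-deficient against 4.20, 1.60 and 3.18 in wild-type cells, and these overlapped (adjusted p = 0.809). It failed the filter when array 1, 2 or 11 was left out. No fold is given for it.

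Cat, the catalase gene (chromosome 2, 103453904 to 103485153), is the other known FoxO target and also did not pass the test. Its brighter probe set, 1416429_a_at, read 850.2, 725 and 699 in FoxO-deficient against 820.2, 805 and 889 in wild-type myeloid progenitors, a difference of -0.15 ± 0.23 (adjusted p = 0.902). A second, dimmer probe set had 87.7, 90.1 and 91.5 in FoxO-deficient against 79.4, 82.9 and 76.9 in wild-type myeloid progenitors. Those groups did not overlap, with the deficient arrays higher, and the difference of 0.17 ± 0.18 was not called (adjusted p = 0.826). In LSK cells the brighter probe set read 852, 750 and 819 in FoxO-deficient against 805, 1522 and 849.6 in wild-type cells, where array 2 alone was high. The difference was -0.33 ± 0.23 (adjusted p = 0.586), and -0.04 ± 0.12 without array 2 (95% interval -0.30 to 0.23). The highest level was that of wild-type LSK cells (1013), followed by wild-type myeloid progenitors (837), FoxO-deficient LSK cells (806) and FoxO-deficient myeloid progenitors (755), and no neighbours differed beyond their spread.

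Prdx2, a cytosolic peroxiredoxin that is abundant in red blood cells (chromosome 8, 84969622 to 84974811, probe set 1418506_a_at), was lower in every FoxO-deficient than in every wild-type array of myeloid progenitors. It read 1551, 1534 and 1459 in FoxO-deficient against 2120, 2077 and 2077 in wild-type myeloid progenitors, with SDs of 0.05 and 0.02 on the log2 scale. The levels of 1514 and 2091 gave a difference of -0.47 ± 0.12 (unadjusted p = 0.00377, adjusted p = 0.106), so it was not called among all genes. Without wild-type LSK array 2, which is in neither group but shares the estimate of the spread, the difference was -0.45 ± 0.08 (adjusted p = 0.00859) and called, where 8.88% of genes were called. Its adjusted p was 0.00655 to 0.812 over all alternatives, the highest with the mean of both probe sets (-0.24). In LSK cells it read 1154, 1261 and 1250 in FoxO-deficient against 1220, 1167 and 1199 in wild-type cells, a difference of 0.03 ± 0.12 (adjusted p = 0.925). The effect in myeloid progenitors minus that in LSK cells was -0.50 ± 0.17 (unadjusted p = 0.0178, adjusted p = 0.319), and -0.47 ± 0.11 (adjusted p = 0.0659) without array 2, so a difference of the effect between cell types was not called. Its second probe set ran from 7.29 to 26.96 over all arrays, near the background limit, with a difference of -0.01 ± 0.48 in myeloid progenitors.

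Prdx4, the peroxiredoxin of the endoplasmic reticulum (X chromosome, 155323918 to 155342272, probe set 1416167_at), also had lower values on every FoxO-deficient array of myeloid progenitors. It read 399, 384 and 388 in FoxO-deficient against 515, 521 and 534 in wild-type myeloid progenitors, a difference of -0.42 ± 0.14 (unadjusted p = 0.0152, adjusted p = 0.231) that was not called. Without array 2 the difference was -0.42 ± 0.07 (adjusted p = 0.0108) and called. With Prdx2 it made 2 of 6 genes called in that setting, where 8.88% of all genes were. The probe sets tested then were the 23 less that of Sod3. Of these only 2 were called, the brightest of Prdx2 and of Prdx4, where 6.23% of all probe sets were. Its second brightest probe set read 383, 358 and 321 in FoxO-deficient against 461, 469 and 542 in wild-type myeloid progenitors, again with no overlap, a difference of -0.47 ± 0.24 (adjusted p = 0.485 over probe sets). The third read 238, 292 and 124 in FoxO-deficient against 384, 284 and 455 in wild-type myeloid progenitors, and there the groups overlapped. In LSK cells the brightest probe set read 616, 641 and 661 in FoxO-deficient against 658, 859 and 677 in wild-type cells, a difference of -0.18 ± 0.14 (adjusted p = 0.617). The difference between the effects was -0.24 ± 0.20 (adjusted p = 0.753).

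Prdx3, the mitochondrial peroxiredoxin (chromosome 19, 60864066 to 60874538), has 1 probe set here, 1416292_at. It read 499.8, 598 and 684 in FoxO-deficient against 511, 539 and 495 in wild-type myeloid progenitors, and the groups overlapped (0.20 ± 0.29, adjusted p = 0.896). In LSK cells it read 293, 261 and 284 in FoxO-deficient against 379, 151.5 and 282 in wild-type cells, where the 151.5 of array 2 lay below all others (0.14 ± 0.29, adjusted p = 0.845). The 5 probe sets of Prdx1/Gm21399, Prdx1 being a cytosolic peroxiredoxin (chromosome 4, 116685599 to 116700000), had differences of -0.35 to 0.09 in myeloid progenitors and of -0.55 to 0.03 in LSK cells, none of them called. The brightest of them read 2792, 2587 and 2740 in FoxO-deficient against 2676, 2703 and 2901 in wild-type myeloid progenitors, and 2727, 2619 and 2735 in FoxO-deficient against 2626, 3480 and 2567 in wild-type LSK cells. With array 2 left out its differences were -0.03 ± 0.09 in myeloid progenitors and 0.05 ± 0.10 in LSK cells.

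**Figure D2:**
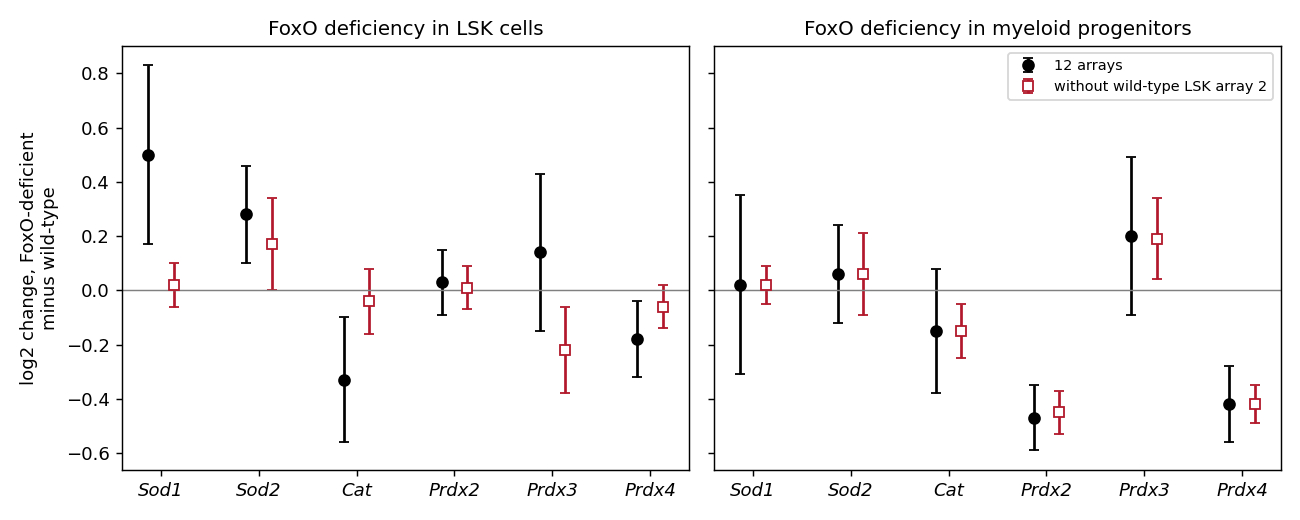
Log2 change with FoxO deficiency (FoxO-deficient minus wild-type) of 6 member genes in LSK cells (left) and myeloid progenitors (right), with standard errors, from the fit to 12 arrays and from the fit without wild-type LSK array 2. Prdx2 and Prdx4 lie at -0.47 and -0.42 in myeloid progenitors in the fit to 12 arrays, and the LSK changes of Sod1 and Cat move to 0.02 and -0.04 without array 2.

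The test of the difference between the FoxO effects in the 2 cell types called 0 of 7 genes and 0 of 23 probe sets, where 0.859% of all genes and 0.588% of all probe sets were called. An unadjusted p under 0.05 was found for 2 of the genes, against 10.6% of all genes, and for 2 of the probe sets, against 10.5%. Without array 2 it called 0 of 6 genes, against 3.51% of all genes. The 2 genes with an unadjusted p under 0.05 were Prdx2 and Sod3. Sod3 was above background on 1 array each of wild-type LSK cells and FoxO-deficient myeloid progenitors, and on 0 of the other groups.

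Members were called between the cell types. In FoxO-deficient cells 3 of 7 genes were called between myeloid progenitors and LSK cells, where 19.6% of all genes were. One of the 3 was Sod3, with 1 of its 6 arrays above background. That was array 11, without which Sod3 failed the filter, so its filter pass and its call both used that value. So 2 were called on signal away from background. The 3 were 2 higher and 1 lower in myeloid progenitors, where 10.2% of all genes were higher and 9.39% lower, and the median change of the 7 was 0.22, beside 0.11 over all genes. In wild-type cells 3 of 7 were called as well, where 21.4% of all genes were, again 2 higher and 1 lower, where 9.95% were higher and 11.5% lower, and the median was 0.44, beside 0.02. Of the 23 probe sets, 2 were called in deficient cells, where 14.6% of all probe sets were, and 2 in wild-type cells, where 14.5% were. Without array 2, 3 of 6 genes were called in deficient cells, where 38.4% of all genes were, and 3 of 6 in wild-type cells, where 34.9% were. Each of these comparisons shares its arrays with the FoxO comparisons.

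Prdx3 was 2.11-fold higher in myeloid progenitors than in LSK cells of the FoxO-deficient genotype and 2.04-fold higher in wild-type cells. Its level was 589 in FoxO-deficient myeloid progenitors against 279 in FoxO-deficient LSK cells (1.08 ± 0.29, adjusted p = 0.0272), and every myeloid progenitor array of either genotype, at 494.6 or more, lay above every LSK array, at 378.6 or less. In wild-type cells the levels were 514.5 in myeloid progenitors and 252.8 in LSK cells (1.03 ± 0.29, adjusted p = 0.032). The wild-type difference was 0.65 ± 0.16 (adjusted p = 0.0156) without array 2. The 2 genotypes differed in neither cell type by more than the spread, so the order was myeloid progenitors of both genotypes above LSK cells of both.

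Prdx2 was higher in wild-type myeloid progenitors, at 2091, than in wild-type LSK cells, at 1195 (0.81 ± 0.12, adjusted p = 0.00148). In FoxO-deficient cells the levels were 1514 in myeloid progenitors and 1220 in LSK cells, again with no overlap, but the difference of 0.31 ± 0.12 was not called (adjusted p = 0.111). Without array 2 it was 0.30 ± 0.08 and called (adjusted p = 0.0131). The order of the levels was wild-type myeloid progenitors, FoxO-deficient myeloid progenitors, then LSK cells of both genotypes, which overlapped. Only the gap between the wild-type cell types was called, and with the mean of both probe sets it was 0.36 and not called (adjusted p = 0.367).

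Prdx4 ran the other way. Its level was 390.4 in FoxO-deficient myeloid progenitors against 639 in FoxO-deficient LSK cells (-0.71 ± 0.14, adjusted p = 0.00678). In wild-type cells it was 523 in myeloid progenitors against 726 in LSK cells (-0.47 ± 0.14, adjusted p = 0.0423). All 6 myeloid progenitor arrays, between 384 and 534, lay below all 6 LSK arrays, between 616 and 859. The level was lowest in FoxO-deficient myeloid progenitors and next lowest in wild-type ones, then came LSK cells of the deficient genotype, and wild-type LSK cells were highest. The genotypes were not called as different within a cell type, and the genotypes' LSK arrays overlapped. The second brightest probe set had a difference of -0.73 ± 0.24 in both genotypes, which did not pass the test over probe sets (adjusted p = 0.0713 in deficient and 0.0745 in wild-type cells). With array 2 left out it was called in deficient cells (-0.72 ± 0.13, adjusted p = 0.00329), where 30.6% of all probe sets were. In wild-type cells it was then at -0.45 ± 0.14 and not called (adjusted p = 0.0518). The third probe set was called in no setting given here. It was at -0.83 ± 0.52 in deficient and -0.03 ± 0.52 in wild-type cells. Leaving out array 2 gave -0.82 ± 0.39 and 0.54 ± 0.43, so its wild-type direction was not settled.

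Sod2 was called in neither genotype, at 916 in FoxO-deficient myeloid progenitors against 785 in FoxO-deficient LSK cells (0.22 ± 0.18, adjusted p = 0.451) and at 881 in wild-type myeloid progenitors against 649 in wild-type LSK cells (0.44 ± 0.18, adjusted p = 0.118). Its other probe sets depended on wild-type LSK array 2, which read 748 on the second brightest one against 243 and 256 on the other wild-type LSK arrays. Without that array, this probe set had a level of 429 in wild-type myeloid progenitors against 259 in wild-type LSK cells (0.73 ± 0.15, adjusted p = 0.00942 over probe sets). The third had 236.5 in FoxO-deficient myeloid progenitors against 162 in FoxO-deficient LSK cells (0.54 ± 0.13, adjusted p = 0.0128), and 300.3 in wild-type myeloid progenitors against 158 in wild-type LSK cells (0.92 ± 0.14, adjusted p = 0.00232). In that setting 30.6% of all probe sets were called in deficient and 25.1% in wild-type cells. Between cell types Sod1 had differences of 0.09 ± 0.33 (deficient) and 0.57 ± 0.33 (wild-type), and Cat of -0.09 ± 0.23 and -0.28 ± 0.23, none called. The probe sets of Prdx1/Gm21399 had differences of -0.01 to 0.16 in deficient and of -0.15 to -0.03 in wild-type cells. Sod3 was called higher in FoxO-deficient myeloid progenitors, at 5.05, 10.32 and 1.59, than in FoxO-deficient LSK cells, at 0.983, 1.12 and 0.883 (adjusted p = 0.0472), with 1 of these 6 arrays above its background limit. That call was lost with a log offset of 8 (adjusted p = 0.133).

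**Figure D3:**
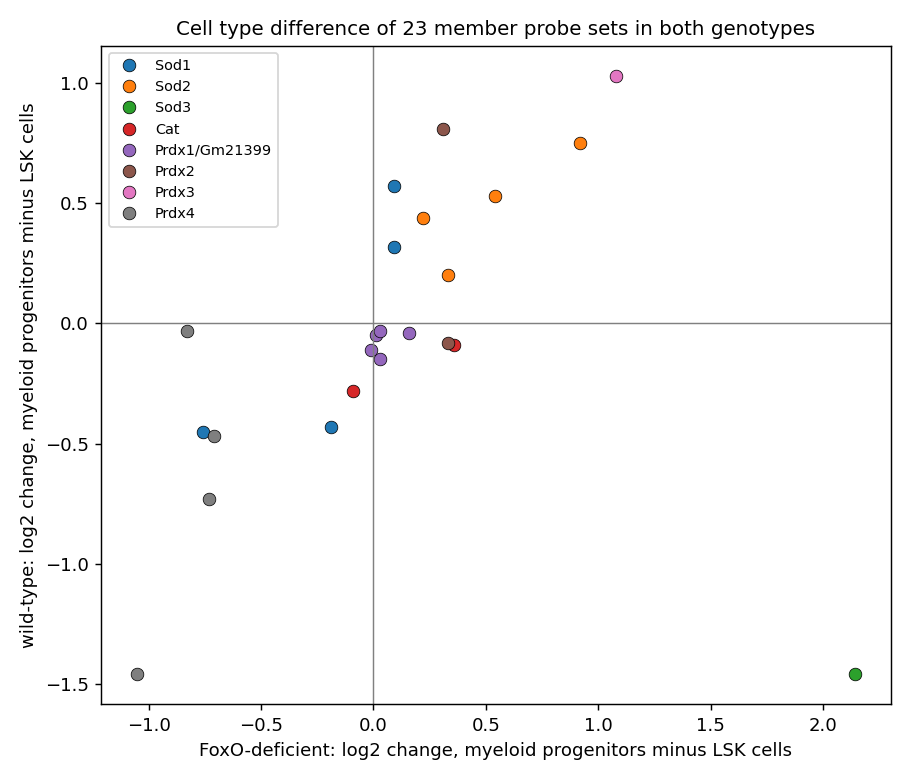
Log2 change of each of the 23 member probe sets in myeloid progenitors minus LSK cells, in FoxO-deficient cells (x axis) and wild-type cells (y axis). The Prdx3 probe set lies at 1.08 and 1.03, the brightest Prdx4 probe set at -0.71 and -0.47, and the brightest Prdx2 probe set at 0.31 and 0.81, and the axes share no arrays.

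Several of the cell type calls were close to the threshold. Scaling each array to 1 median in place of quantile normalization moved the median of all genes to 0.31 in deficient and 0.19 in wild-type cells. Prdx4 was then not called in either genotype (-0.34 in deficient and -0.18 in wild-type cells), while Prdx2 was called in deficient cells (0.65) and Sod2 in wild-type cells (0.79). When any 1 of the 6 FoxO-deficient LSK or FoxO-deficient myeloid progenitor arrays or any of the 3 wild-type myeloid progenitor arrays was left out, the wild-type call of Prdx4 was lost. The wild-type call of Prdx3 was lost without any of the 3 wild-type myeloid progenitor arrays, and its call in deficient cells without array 4, 5, 6, 11 or 12. Without wild-type LSK array 3, Sod2 was called in wild-type cells (0.61, adjusted p = 0.0316). In a fit to the wild-type arrays alone none of the 3 wild-type calls passed, with adjusted p-values of 0.0652 for Prdx2, 0.166 for Prdx3 and 0.258 for Prdx4. The direction of each of these values was kept.

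Prdx2 and red cell genes had the same order of groups among myeloid progenitors. The summed intensity of the 10 erythroid markers measured, of 14 listed, was 10760 to 11180 in FoxO-deficient myeloid progenitors and 13530 to 14150 in wild-type myeloid progenitors. It was 4495 to 4742 in FoxO-deficient and 3406 to 4987 in wild-type LSK cells. Of the 10, 1 was called lower in FoxO-deficient myeloid progenitors and none higher, which was Tspan33 at 297 in FoxO-deficient and 745.5 in wild-type myeloid progenitors (-1.33 ± 0.22, adjusted p = 0.0158), and the median change was -0.83. In FoxO-deficient LSK cells 1 was also called lower, Car1 (-0.89 ± 0.14, adjusted p = 0.0457), at a median of -0.82. The change of Prdx2 there was 0.03 ± 0.12. Bright markers weigh most in the sum, such as Car2, at 3236 in FoxO-deficient LSK cells. Without array 2, 4 of the 10 markers were called lower in FoxO-deficient myeloid progenitors (Gata1, Klf1, Car1 and Tspan33) and 2 in FoxO-deficient LSK cells (Car1 and Tspan33). Of all genes, 1.84% were called in myeloid progenitors and 0.269% in LSK cells, and 8.88% and 0.989% without array 2. Klf1, a transcription factor of the red cell lineage, was at 199 in FoxO-deficient and 353.5 in wild-type myeloid progenitors (-0.83 ± 0.30, adjusted p = 0.261). The part of red cell progenitors in the Prdx2 result was not tested.

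**Figure D4:**
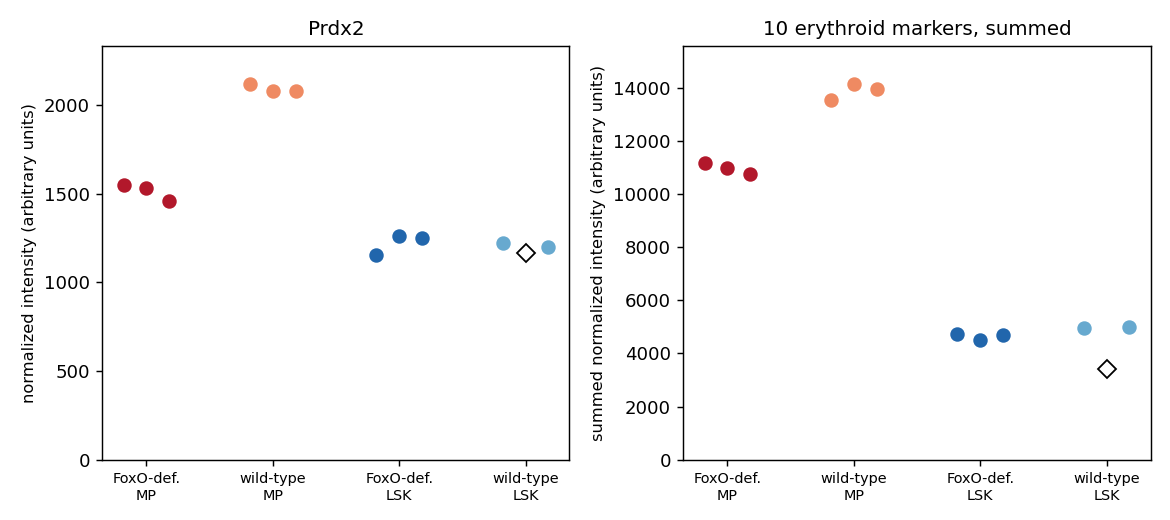
Normalized intensity of Prdx2 (left) and the summed normalized intensity of 10 erythroid markers (right) on each array, in arbitrary units, in the 4 groups from FoxO-deficient myeloid progenitors (MP) to wild-type LSK cells. The white diamond is wild-type LSK array 2. In both panels wild-type myeloid progenitors are highest, FoxO-deficient myeloid progenitors are next and the LSK groups are lowest.

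Other gene groups moved between the same myeloid progenitor arrays as Prdx2 and Prdx4. The summed intensity of 18 immediate-early and dissociation genes was 1439 to 1483 in FoxO-deficient and 16690 to 17490 in wild-type myeloid progenitors, and 17 of the 18 were called lower. That of the granulocyte-monocyte progenitor markers was 20110 to 20770 in FoxO-deficient and 16050 to 16580 in wild-type myeloid progenitors, with 1 of 10 called higher (Gfi1), and that of 8 late neutrophil markers was 6468 to 6757 and 4554 to 4700, with 1 of 8 called higher (Camp). Between these arrays 1.84% of all genes were called, and 8.88% without array 2. Without array 2, all 18 immediate-early and dissociation genes were called lower in FoxO-deficient myeloid progenitors. In that setting 5 of the 10 granulocyte-monocyte progenitor markers (Prtn3, Cebpa, Csf2rb, Gfi1 and Ms4a3) and 4 of the 8 late neutrophil markers (S100a8, S100a9, Camp and Lcn2) were called higher. The part of these shifts in the Prdx2 and Prdx4 results was not tested.

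Of 28 partner and recycling enzymes, such as thioredoxins, glutathione enzymes and sulfiredoxin, all 28 were measured and 0 were called in either cell type or in the difference, with medians of -0.09 in myeloid progenitors and -0.07 in LSK cells. In limma's fit the unadjusted p was under 0.05 for 5 of them in myeloid progenitors, where it was for 12.9% of all genes, for 5 in LSK cells (11.5% of all genes) and for 2 in the difference (10.6%). The largest differences were those of Sesn2, a sestrin, in myeloid progenitors (-1.34 ± 0.88, adjusted p = 0.617) and Txnrd2, the mitochondrial thioredoxin reductase, in LSK cells (-1.53 ± 0.44, adjusted p = 0.248). Txnrd2 was at 7.98 in FoxO-deficient LSK cells, near the background limits of those arrays (5.14 to 9.48). Without array 2, 2 were called lower in myeloid progenitors (Glrx5 and Gstp1) and 1 lower in LSK cells (Txnip). In that setting 8.88% and 0.989% of all genes were called. Between cell types, 3 of 28 were called higher and 4 lower in FoxO-deficient myeloid progenitors, with a median of 0.21, and 6 higher and 4 lower in wild-type ones, with a median of 0.18. Without array 2 these counts were 11 higher and 7 lower in deficient and 8 higher and 5 lower in wild-type myeloid progenitors. Of all genes, 19.6% were called in deficient and 21.4% in wild-type cells, and 38.4% and 34.9% without array 2. Srxn1, the sulfiredoxin that restores over-oxidised peroxiredoxins, was at 83.5 in FoxO-deficient myeloid progenitors against 385 in FoxO-deficient LSK cells (-2.20 ± 0.23, adjusted p = 1.35e-04). In wild-type cells it was at 100 in myeloid progenitors against 210.2 in LSK cells (-1.07 ± 0.23, adjusted p = 0.00861). Msrb1, a methionine sulfoxide reductase, was at 239.9 in myeloid progenitors against 67.7 in LSK cells of the deficient genotype (1.83 ± 0.19, adjusted p = 1.35e-04) and at 174.5 against 78.4 in the wild-type ones (1.15 ± 0.19, adjusted p = 0.00216). Gpx3, a secreted glutathione peroxidase, was called higher in myeloid progenitors of both genotypes (1.68 ± 0.43 in deficient and 1.76 ± 0.43 in wild-type cells). Txnrd2 was called higher in deficient cells (adjusted p = 0.039), against its LSK level near background. In wild-type cells Gclm was called higher (1.23 ± 0.37) and the sestrin gene Sesn3 lower (-1.57 ± 0.18).

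Of 20 genes for enzymes that make superoxide or peroxide, 13 were measured and 0 were called with FoxO deficiency in either cell type, while limma's unadjusted p was under 0.05 for 2 in myeloid progenitors and 1 in LSK cells, beside the 12.9% and 11.5% of all genes. The largest differences were in Smox, spermine oxidase, in myeloid progenitors, at 13.3 in FoxO-deficient and 26.6 in wild-type cells (adjusted p = 0.159), and in Maob in LSK cells, where both levels were below the background limits. Without array 2, Cyba, Ncf4 and Rac2, all parts of the phagocyte oxidase or its activation, were called higher in FoxO-deficient myeloid progenitors, and Ncf4 was called in the difference of the effect. Between cell types 4 were called higher, among them Maob, Ncf4 and Ero1a, and 1 lower (Smox) in FoxO-deficient myeloid progenitors. The Maob levels, 8.47 in FoxO-deficient myeloid progenitors and 1.28 in FoxO-deficient LSK cells, lay below the background limits of these arrays. In wild-type myeloid progenitors 1 was called higher (Cybb) and 1 lower (Smox), and without array 2 these counts were 2 and 2. The genes called were then Ncf1, Rac2, Ero1a and Smox, and Cybb was no longer called. Of 18 regulators and targets of Nrf2, 16 were measured, 2 were called lower in FoxO-deficient myeloid progenitors and 0 were called in LSK cells, where limma's unadjusted p was under 0.05 for 2 (11.5% of all genes). Those called were the small Maf genes Maff, at 4.71 in FoxO-deficient and 32.9 in wild-type cells (adjusted p = 0.0428), and Mafk (-1.37 ± 0.20, adjusted p = 0.00732). The deficient level of Maff lay below the background limits of those arrays (8.74 to 10.1). Without array 2, 4 were called lower there (Mafk, Maff, Nqo1 and Blvrb), and Nqo1 was called in the difference of the effect. The largest difference in LSK cells was that of Blvrb (1.20 ± 0.70, adjusted p = 0.528). Between cell types 3 were called higher and 4 lower in deficient and 2 higher and 3 lower in wild-type myeloid progenitors. The largest of these were in Maff, Me1, Mafk and Pgd in deficient cells and in Blvrb, Maff, Mafk and Taldo1 in wild-type cells. In deficient cells the Maff call also used the level below background. Of all genes, 1.84% were called with FoxO deficiency in myeloid progenitors, 0.269% in LSK cells and 0.859% in the difference. Without array 2 these shares were 8.88%, 0.989% and 3.51%. Between cell types they were 19.6% in deficient and 21.4% in wild-type cells, and 38.4% and 34.9% without array 2.

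Some other known FoxO targets were called in myeloid progenitors. Of 22 listed, 21 were measured, with the targeted genes among them, and 6 were called lower and 0 higher in FoxO-deficient myeloid progenitors, at a median of -0.77. The largest of these changes were in Trib1, Klf2, Klf6 (-2.60 ± 0.23) and Foxo4 itself. Trib1 was at 3.16 in FoxO-deficient and 96.9 in wild-type myeloid progenitors, and Klf2 at 5.33 and 35.7, so the deficient levels lay near background. In FoxO-deficient LSK cells 1 was called lower, Foxo4, and 0 higher, at a median of -0.11. Of all genes, 1.84% were called in myeloid progenitors and 0.269% in LSK cells. The difference of the effect was called for 1 target, Klf6 (-3.13 ± 0.32, adjusted p = 0.0015), where 0.859% of all genes were called. Without array 2, 3 were called higher and 9 lower in FoxO-deficient myeloid progenitors, and 1 higher (Bcl2l11) and 1 lower (Foxo4) in FoxO-deficient LSK cells. The difference of the effect was then called for 6, of which 1 was higher and 5 lower: Cdkn1a, Bcl2l11, Cited2, Ddit4, Trib1 and Klf6. In that setting 8.88% of all genes were called in myeloid progenitors, 0.989% in LSK cells and 3.51% in the difference. Between cell types 1 was called higher and 9 lower in deficient myeloid progenitors, the largest being Trib1, Cdkn1a, Klf2 and Klf6, and 1 higher and 5 lower in wild-type ones, the largest being Cdkn1a, Foxo1, Pink1 and Bcl6. Of all genes, 19.6% were called between deficient and 21.4% between wild-type cell types. The part of the drop in immediate-early genes in the calls of these FoxO targets was not tested. Whether Sod2 and Cat differ from these genes was not tested.

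The genes most like each member over the 12 arrays, by Pearson's r of log2 values, are given as a description, since the arrays share 4 groups and array 2. They were Alad (0.978) and Prelid2 (0.969) for Prdx2, Ostm1 (0.982) and Aph1a (0.975) for Prdx3, Map1lc3b (0.995) and Nfkbid (0.992) for Prdx4, and Baz1b (0.943) and Pi16 (0.941) for Sod2. These values stayed at 0.908 or more over the 11 arrays without array 2. For Sod1 they were Btf3 (0.995) and Ppp6r3 (0.994), which were 0.788 and 0.621 without array 2, and for Cat Supt20 (0.975) and Chmp4b (0.971), which were 0.812 and 0.752. For the dim Sod3 they were Snx19 (0.866) and Twnk (0.842).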

How the data were processed

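Per the labels, RNA of sorted cells was amplified and hybridised to Affymetrix whole-genome mouse arrays. The values the authors deposited are intensities on a linear scale, 1 for each of 45101 probe sets on 12 arrays, and no source used here names the software that summarised the probes. Array medians ran from 8 to 13.5, so no common distribution had been imposed. At most 1.55% of probe sets had equal values on any pair of arrays.

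An offset of 0.6, the 10th percentile of the whole table, was added to each intensity before log2, and arrays were quantile normalized. This offset lies below the background limits of 5.14 to 13, so log2 changes of genes near background can be large. Controls (64 probe sets) were left out, and probe sets above the 40th percentile of their array on at least 3 arrays were kept (31779). The platform annotation gives 1 gene symbol to 34945 probe sets, several to 932 and none to 9160. A gene with its own symbol was tested on the kept probe set of highest mean. A model with 1 mean per group was fitted in R 4.3.3 by lmFit and eBayes of limma 3.58.1 (8 residual degrees of freedom before moderation) and tested on simulated data first. Adjusted p-values are from that fit over 13732 genes, or over all kept probe sets in a second fit. The number of arrays limits the precision.

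Members, gene lists and tests were chosen with earlier results of these data known. Named genes outside the members are, per list and comparison, up to 4 called genes with the largest change, or the largest change where none was called. Srxn1 in wild-type cells, Klf1 and the genes named without array 2 were chosen after their values were seen. Promoters and positions are from RefSeq (GRCm38.p6). Alternatives were other offsets, scalings, filters, probe set rules, weights and priors, fits to the groups compared and fits without each array. The same alternatives for probe set counts, and list counts without array 2, were added after the data were seen.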

Additional observations from a re-analysis of the deposited data

How the results depend on the processing

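Over 708 values of a member under an alternative, 631 kept their direction and side of the threshold, 39 lost a call, 16 gained one, and 22 turned sign with a call in neither setting. No value turned sign with a call. With FoxO deficiency in myeloid progenitors, 1 gene was called with a log offset of 32, with the 60th percentile filter, with an intensity trend and robust prior and with only the groups compared, and 2 were called with array weights. In the first 4 settings this gene was Prdx2. Over all genes 253 of 13732 were called with the chosen settings, 507 with the offset of 32, 407 of 9790 with the 60th percentile filter, 323 with the trend, 644 with only the groups compared and 1230 with array weights. The probe sets called there were 1 with the offset of 32 and with the trend and 2 with array weights. Between wild-type cell types, genes called fell to 1 without a filter and with the mean of a gene's probe sets, and to 0 with only the groups compared. Over all genes 2942 of 13732 were called there with the chosen settings, 2410 of 18193 without a filter, 2720 with the mean of a gene's probe sets and 1100 with only the groups compared. Probe sets called there were 4 with the offset of 32, with the 60th percentile filter and with the trend, 6 with array weights, 1 without a filter and 0 with only the groups compared. Between FoxO-deficient cell types they were 4 with the offset of 32 and with the trend, 6 with array weights, 5 with only the groups compared and 0 without a filter. The cause was not tested.

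Apart from the settings that leave out 1 array, uncalled values turned sign under 3 settings. With median scaling Sod1 was at -0.09 with FoxO deficiency in myeloid progenitors, and Cat at 0.27 between deficient and 0.01 between wild-type cell types. With the mean of a gene's probe sets, FoxO deficiency in LSK cells gave -0.09 for Sod1, -0.17 for Sod2 and -0.19 for Prdx2, and in myeloid progenitors -0.29 for Sod1, -0.15 for Sod2 and 0.01 for Cat. The difference of effects was then 0.03 for Sod2, and deficient cell types differed by -0.19 for Sod1 and 0.14 for Cat. With array weights Prdx3 was at -0.13 in LSK cells and Cat at -0.08 in the difference of effects.

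Leaving out 1 array at a time gave 0 to 2 called genes and 0 to 2 called probe sets for FoxO deficiency in myeloid progenitors, 1 to 4 genes and 1 to 5 probe sets between wild-type cell types, and 1 to 3 genes and 0 to 5 probe sets between deficient cell types. The values that turned sign ranged, for FoxO deficiency, over -0.22 to 0.44 for Prdx3 in LSK cells, -0.01 to 0.04 for Sod1 and 0 to 0.14 for Sod2 in myeloid progenitors, over -0.11 to 0.35 for Cat and -0.24 to 0.42 for Prdx3 in the difference of effects, and over -0.44 to 0.02 for Cat between wild-type cell types. An arm left with 2 arrays was tested with the spread of all groups. Sod3 had no value with the 60th percentile filter or without array 1, 2 or 11, and the fit to only the groups compared gives no difference of effects. Median scaling gave 2429 genes higher and 1045 lower between deficient cell types, against 1406 and 1289 with quantile normalization, and 2188 higher and 1207 lower against 1367 and 1575 between wild-type cell types. Probe sets near background, such as those of Sod3, allow no fold.

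No paired analysis was possible because no array number is shared between groups.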
